A study of Mus musculus with 6 samples.

Results

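The genes described here are 10 genes of mast cell granules, the IgE receptor and biogenic amines: the granule proteases Cpa3, Cma1, Mcpt4, Tpsb2 and Tpsab1, the amine-synthesising enzymes Hdc and Tph1, the IgE receptor chains Ms4a2 and Fcer1a, and the serotonin transporter Slc6a4. They were chosen by name, with earlier results of these data known. The array annotation gave a probe set for 9 of the 10, among 15644 named genes. Tpsab1 was not listed in that annotation and has no value here. RefSeq classes it as a transcribed pseudogene on the C57BL/6J assembly, where it neighbours Tpsb2.

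Total RNA of dissected skin was compared between 3 mutant mice, labelled as Hoxc13 knockout with the allele Hoxc13tm1Mrc, and 3 wild type mice, on Affymetrix 3′ expression arrays. Hoxc13 encodes a homeobox protein known for its role in hair follicles. All samples were labelled C57BL/6, male and 5 dpn, and the submitters describe the 3 samples in a group as independent. The zygosity of the mutants is not stated there. The question put to these arrays is how skin transcripts change with the Hoxc13 allele.

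Mast cells are tissue-resident cells of the dermis that store proteases, histamine and, in rodents, serotonin in granules bound to heparin. They mature in the tissue under stem cell factor, the ligand of the receptor Kit, and release their granules when IgE bound to the high-affinity receptor is crosslinked. Mouse connective tissue mast cells, the type found in skin, are known for carboxypeptidase A3, chymases and tryptases. Serotonin is made from tryptophan by tryptophan hydroxylase and is taken up from outside the cell by the transporter that Slc6a4 encodes.

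The 4 promoters printed here belong to the 3 protease genes whose values lay highest in the same 2 mutant arrays, and to the transporter gene, the single member that passed the test. Each is the stretch of 250 bases before the RefSeq start site on GRCm38.p6, 5′ to 3′ on the strand of the gene. Cpa3 lies at chr3:20242182-20242431, minus strand. Cma1 lies at chr14:55944676-55944925, minus strand. Mcpt4 lies at chr14:56062311-56062560, minus strand. Slc6a4 lies at chr11:76998347-76998596, plus strand. Capitals mark matches to GATAA, the core letters bound by GATA factors, on either strand (read as TTATC on the opposite one), or to CACNTG, an E-box that includes the letters bound by MITF, on either strand (CANGTG on the opposite one).
Cpa3: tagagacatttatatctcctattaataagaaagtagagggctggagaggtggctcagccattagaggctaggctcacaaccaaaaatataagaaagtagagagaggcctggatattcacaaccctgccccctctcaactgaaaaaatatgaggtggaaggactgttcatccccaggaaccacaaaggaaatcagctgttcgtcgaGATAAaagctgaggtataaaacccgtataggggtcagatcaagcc
Cma1: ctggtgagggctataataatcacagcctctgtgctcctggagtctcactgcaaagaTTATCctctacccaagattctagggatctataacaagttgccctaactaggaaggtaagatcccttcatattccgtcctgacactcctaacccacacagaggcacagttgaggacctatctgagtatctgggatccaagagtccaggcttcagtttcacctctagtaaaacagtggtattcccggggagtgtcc
Mcpt4: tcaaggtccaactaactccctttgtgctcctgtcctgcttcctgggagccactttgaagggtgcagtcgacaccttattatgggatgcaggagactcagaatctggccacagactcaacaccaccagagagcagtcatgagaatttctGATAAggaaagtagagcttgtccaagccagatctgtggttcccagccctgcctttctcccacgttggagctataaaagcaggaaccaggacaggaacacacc
Slc6a4: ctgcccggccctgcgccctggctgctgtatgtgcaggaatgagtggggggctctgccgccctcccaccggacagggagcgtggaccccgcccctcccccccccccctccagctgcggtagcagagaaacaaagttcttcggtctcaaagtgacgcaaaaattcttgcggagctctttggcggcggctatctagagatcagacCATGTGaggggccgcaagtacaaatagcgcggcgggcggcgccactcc

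GATAA was found in 5 of the 8 members with a RefSeq window, against 22.6% of the 32851 windows in the table, and CACNTG in 2 members, against 39.5% of windows. Cpa3 has 1 GATAA starting 45 bases before the start site, Mcpt4 has 1 at 102 bases and Cma1 has 1, on the opposite strand, at 194 bases. Slc6a4 has no GATAA and 1 CACNTG, on the opposite strand, at 48 bases. Ms4a2 and Fcer1a held GATAA as well (3 matches and 1 match), and Hdc and Tph1 held neither motif. Cma1 and Mcpt4 lie in the same protease cluster on chromosome 14, with 4 coding genes between their starts. Compared base by base without gaps, their promoters are identical at 24.8% of positions. Other compared pairs of member promoters ranged from 20.0% (Cpa3 with Slc6a4) to 29.6% (Cma1 with Hdc). A gained or lost base shifts all that follow, so this comparison could miss a likeness. These matches are letters in a window and were not tied to any measured binding.

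Each array gave log2 values after RMA (background correction, quantile normalisation and a summary over the probes) for 16331 probe sets with a median of 7.405. Values of different probe sets are not comparable as amounts of RNA. Among the mutant arrays replicate 3 differed most: it correlated with the others at 0.9891 and 0.9901 over probe sets, against 0.9972 between mutant replicates 1 and 2 and 0.9964 to 0.9967 among wild type arrays. With the wild type arrays it correlated at 0.9742 to 0.9796, much as mutant replicates 1 and 2 did (0.9726 to 0.9795). Over all probe sets it was therefore closer to the other mutant arrays than to wild type. Hoxc13 itself read 8.95, 8.75 and 9.74 in mutant replicates 1, 2 and 3, against 9.63 to 9.83 in wild type skin, so that mutant replicate 3 fell among the wild type values. The Hoxc13 difference was -0.61 (limma adjusted p = 0.293), and -0.90 without that array (adjusted p = 0.00114). No source used here says where the Hoxc13 probes lie relative to the targeted change. All 6 arrays read 11.15 to 11.67 for Xist and at most 4.89 for the 6 Y-linked probe sets, although the labels give male animals. Because mutant replicate 3 bears on several members, results are given with and without it. That array was singled out with its values known. Where it is the lowest mutant array, leaving it out raises the difference by construction. The adjusted p-values and calls of that fit are therefore descriptions and not independent tests. The keratinocyte markers (5 of 5) and the fibroblast markers (6 of 6) were above background on every array, as the tissue label says.

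Background was set on each array at the 95th percentile of 60 olfactory and vomeronasal receptor probe sets, 5.50 to 5.66, a level exceeded on every array by 71.1% of all probe sets. Of the 9 measured members, 6 were above it on all 6 arrays: the proteases Cpa3, Cma1, Mcpt4 and Tpsb2, the histamine enzyme Hdc and the transporter Slc6a4. Ms4a2, Fcer1a and Tph1 were below it on all 6 arrays. At the 99th percentile of the same receptors (5.81 to 6.21), Slc6a4 was above on 5 arrays and below on wild type replicate 1. The proteases and Hdc stayed above it on all 6.

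Slc6a4 rose in mutant skin, and 7 of the other members had higher mutant means without passing the test, while Tph1 averaged 4.13 in each group. With all 6 arrays the limma test called 1 of the 9 members at an adjusted p under 0.05, in a table where 2.08% of probe sets were called in either direction and 0.478% as higher in mutant skin. The median difference (mutant minus wild type, log2) over the 9 members was 0.55, against 0.02 over all probe sets. Because the members were chosen with earlier results of these data known, such comparisons with all probe sets are descriptions and not tests. Without mutant replicate 3, 6 members were called, all higher in mutant skin, where 7.95% of all probe sets were called higher, and the median difference was 0.79. Among the called members Ms4a2 was below background on every array, so its call is not read as a difference in its RNA. That fit leaves out the mutant array that differed most and keeps 2 that correlate closely, so its p-values may be too small. In whole skin, a changed number of mast cells, changed RNA per mast cell and a changed share of other cells or tissue cannot be told apart.

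**Figure D1:**
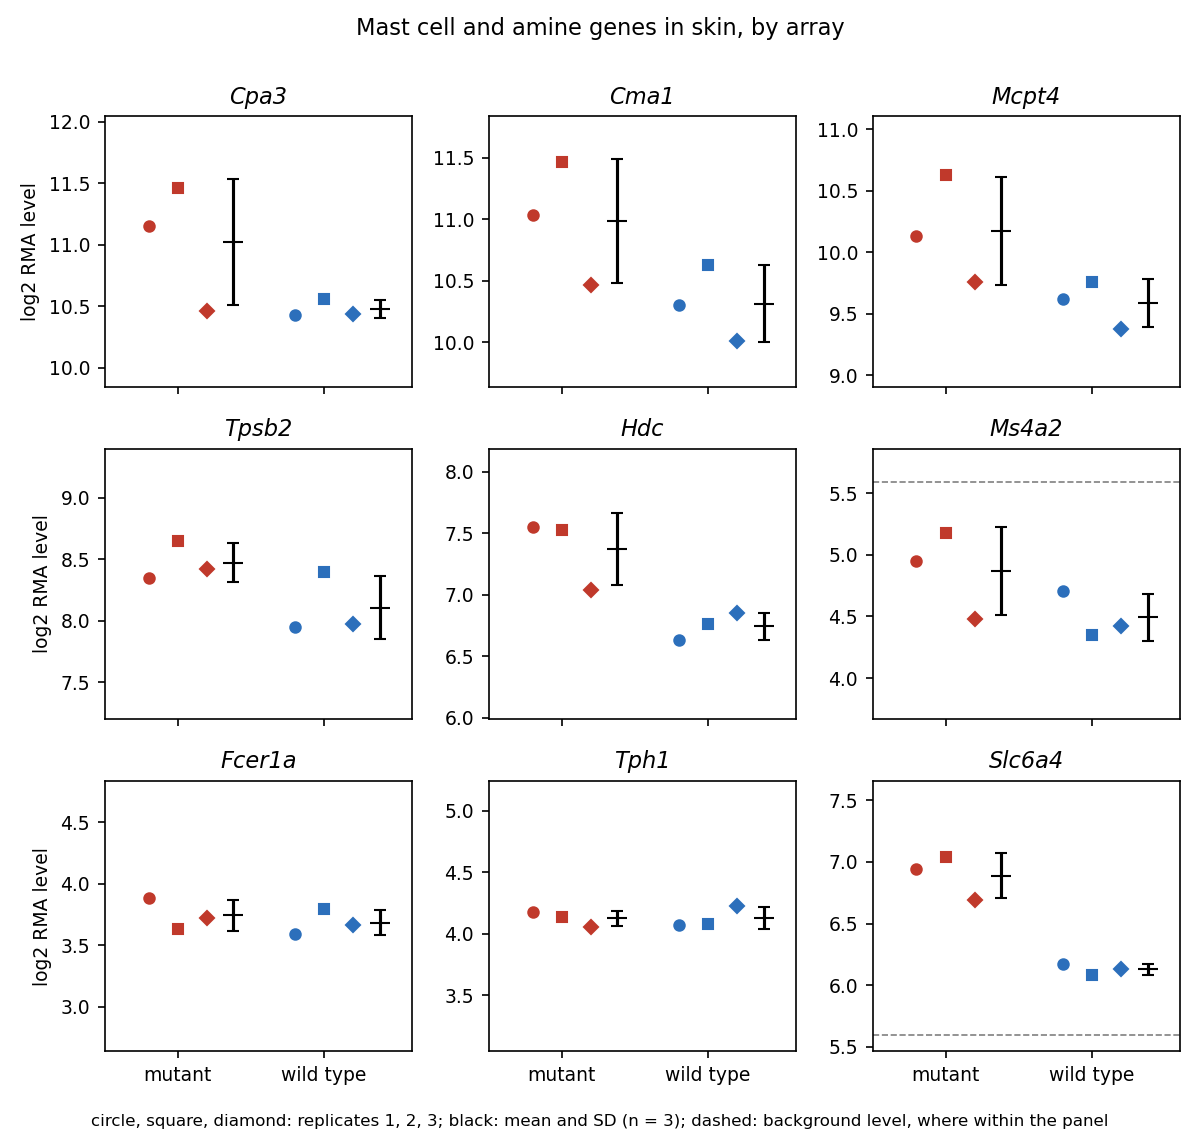
Log2 RMA levels of the 9 measured genes on each array, mutant on the left and wild type on the right of each panel, with the mean and SD of the 3 arrays beside them and the background level as a dashed line where it falls within the panel. All panels span the same range of log2 units. The mutant and wild type values of Slc6a4 and Hdc do not overlap, and mutant replicate 3 (diamond) of Cpa3 lies among the wild type arrays.

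Cpa3, which encodes the carboxypeptidase of mast cell granules, read 11.15, 11.46 and 10.46 in mutant replicates 1, 2 and 3, against 10.43, 10.56 and 10.44 in wild type replicates 1, 2 and 3. Mutant replicates 1 and 2 were above all wild type arrays, and mutant replicate 3 lay inside their range. The means were 11.02 ± 0.51 in mutant and 10.48 ± 0.08 in wild type skin (SD, n = 3 each), a difference of 0.55 (SE 0.23, 95% interval 0.02 to 1.07), or 1.46-fold. It did not pass the test over all probe sets (limma, adjusted p = 0.331), and the exact permutation p was 0.2. Without mutant replicate 3 the difference was 0.83 (1.78-fold, limma adjusted p = 0.00257).

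Cma1 and Mcpt4 encode chymases, serine proteases that cut after aromatic residues. Cma1 read 11.03, 11.46 and 10.46 in the mutant arrays, against 10.30, 10.63 and 10.01 in the wild type arrays, a difference of 0.67 (SE 0.25, limma adjusted p = 0.289). Mcpt4 read 10.13, 10.63 and 9.76 in mutant skin, against 9.62, 9.76 and 9.38 in wild type skin, a difference of 0.58 (SE 0.21, adjusted p = 0.265). As for Cpa3, mutant replicates 1 and 2 of both chymase genes exceeded every wild type array and mutant replicate 3 did not. Without it the differences were 0.93 for Cma1 and 0.79 for Mcpt4 (limma adjusted p = 0.0173 and 0.018). The order of the arrays was the same for both chymase genes: within mutant skin replicate 2 was highest and replicate 3 lowest, and within wild type skin replicate 2 was highest and replicate 3 lowest. Chymase genes are close in sequence, so how far each probe set reads its own gene alone is uncertain.

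Tpsb2, which encodes a tryptase, departed from this pattern. It read 8.35, 8.65 and 8.42 in mutant skin, against 7.95, 8.40 and 7.97 in wild type skin. Its mutant replicate 3 was above mutant replicate 1 and just above the highest wild type array, and mutant replicate 1 was below that array, so the groups overlapped. The difference of 0.37 (SE 0.14, 95% interval 0.04 to 0.69) did not pass the test with all arrays (limma adjusted p = 0.295) or without mutant replicate 3 (0.39, adjusted p = 0.132). Tryptase genes are paralogs, and signal from Tpsab1 on this probe set was not tested.

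Over the 4 measured proteases, the summed level on the linear RMA scale was 5820, 7620 and 4030 in mutant replicates 1, 2 and 3, against 3680, 4310 and 3340 in wild type replicates 1, 2 and 3. Relative to the wild type mean these sums were 1.54, 2.02 and 1.07 in the mutant arrays, against 0.974, 1.14 and 0.884 in the wild type arrays. Mutant replicate 3 therefore lay within the wild type range for the proteases as a group.

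Hdc, histidine decarboxylase, makes histamine from histidine. It read 7.55, 7.53 and 7.04 in mutant skin, against 6.63, 6.76 and 6.85 in wild type skin, and every mutant array was above every wild type array. The means were 7.37 ± 0.29 and 6.75 ± 0.11 in mutant and wild type skin (SD, n = 3 each). Their difference of 0.62 (SE 0.14, 95% interval 0.29 to 0.96, 1.54-fold) missed the threshold (limma adjusted p = 0.0927), and it was 0.79 without mutant replicate 3 (adjusted p = 0.00112). Groups did not overlap, with mutant higher, for 2 of the 9 members, Hdc and Slc6a4, and for 12.5% of all probe sets.

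Tph1, tryptophan hydroxylase, which catalyses the first step of serotonin synthesis outside the nervous system, read 4.18, 4.14 and 4.06 in mutant skin, against 4.07, 4.08 and 4.23 in wild type skin. These values lay below background on all 6 arrays, so neither the presence of Tph1 RNA nor a difference in it could be read. The interval of the difference was -0.18 to 0.18.

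Both receptor chain genes also read below background. Ms4a2, the beta chain of the high-affinity IgE receptor, read 4.95, 5.18 and 4.48 in mutant skin, against 4.71, 4.35 and 4.42 in wild type skin. Mutant replicates 1 and 2 were again the highest, with mutant replicate 3 inside the wild type range. The difference of 0.37 (SE 0.18) did not pass with all arrays (limma adjusted p = 0.402) and did without mutant replicate 3 (0.57, adjusted p = 0.0219), but as for Tph1 no difference in RNA could be read at this level. Fcer1a, the IgE-binding alpha chain, read 3.88, 3.63 and 3.72 in mutant skin, against 3.59, 3.79 and 3.66 in wild type skin, with no order between the groups (difference 0.07, 95% interval -0.15 to 0.28, adjusted p = 0.799).

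Slc6a4 encodes the sodium-dependent serotonin transporter, which is known from serotonergic neurons and platelets and, in rodents, from mast cells. It read 6.94, 7.04 and 6.69 in mutant replicates 1, 2 and 3, against 6.17, 6.08 and 6.13 in wild type replicates 1, 2 and 3. Values of the groups did not overlap, and the lowest mutant array, replicate 3, was 0.52 above the highest wild type value, where the whole wild type range was 0.09. The means were 6.89 ± 0.18 in mutant and 6.12 ± 0.04 in wild type skin (SD, n = 3 each). The difference of 0.77 (SE 0.10, 95% interval 0.53 to 1.00), 1.70-fold, passed the test (limma adjusted p = 0.00937), with the 8th smallest p among probe sets higher in mutant skin. For this gene alone, exact permutation gave a two-sided p = 0.1, which is the lowest value possible with 3 arrays a group. RMA compresses differences of values this near to background.

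With fewer arrays the direction of Slc6a4 stayed the same and its call did not always pass. Its difference was 0.69 to 0.87 when each array was left out in turn, always higher in mutant skin. The call was kept without mutant replicate 2 (adjusted p = 0.0356) or mutant replicate 3 (adjusted p = 0.000348). It was lost narrowly without mutant replicate 1 (adjusted p = 0.0519) or wild type replicates 1, 2 or 3 (adjusted p = 0.0513, 0.06 and 0.0582, all limma).

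**Figure D2:**
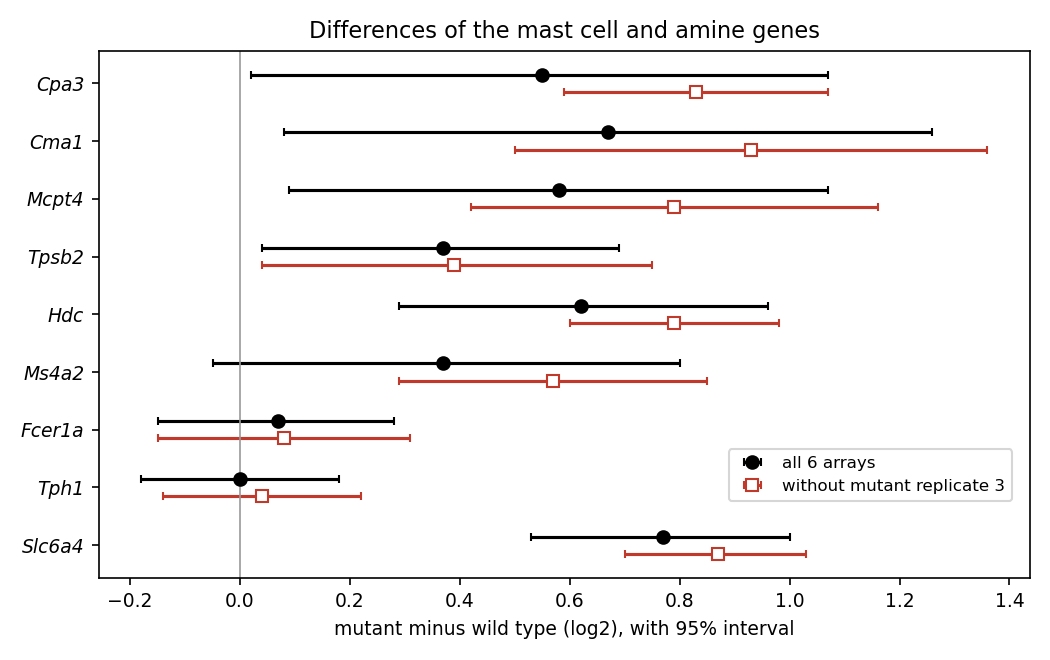
Difference of each member (mutant minus wild type, log2) with its 95% interval, for all 6 arrays (filled circles) and without mutant replicate 3 (open squares). Slc6a4 lies at 0.77 with all arrays and 0.87 without that array, while Cpa3 lies at 0.55 and 0.83, and Fcer1a and Tph1 lie near 0 in both.

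Mutant replicates 1 and 2 both lay above every wild type array for 6 of the 9 members, against 27.2% of all probe sets. In 4 of those 6 (Cpa3, Cma1, Mcpt4 and Ms4a2) mutant replicate 3 did not exceed the wild type arrays, as for 14.7% of all probe sets. Slc6a4 and Hdc were the other two. Mutant replicate 3 was the lowest mutant array for 7 of the 9 members, against 37.5% of all probe sets, the exceptions being Tpsb2 and Fcer1a. The distance of mutant replicate 3 from the mean of the other two mutant arrays was -0.85 for Cpa3, -0.78 for Cma1, -0.62 for Mcpt4, -0.50 for Hdc and -0.30 for Slc6a4.

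To find the profiles most like that of Cpa3, each probe set was centred on its own mean and the root mean square difference from Cpa3 over the 6 arrays was taken, among 2463 probe sets whose SD was at least 50% that of Cpa3. The closest was Mmrn1, a multimerin known from platelets and endothelium (0.0583 log2 units), followed by Ms4a6b (0.0696), a probe set without a name here (0.0841), Pf4, platelet factor 4 (0.0996), and the glutamine transporter gene Slc1a5 (0.104). Mmrn1 read 8.20, 8.39 and 7.32 in mutant skin, against 7.40, 7.50 and 7.42 in wild type skin. Of the members, Mcpt4 ranked 20th (0.126), Cma1 67th (0.162), Hdc 82nd (0.17), Ms4a2 139th (0.19), Slc6a4 376th (0.231) and Tpsb2 764th (0.291). None of the 5 closest probe sets was another member, and Fcer1a and Tph1 varied too little to be ranked.

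Few other genes of mast cell biology passed the test. Of 78 genes measured in 7 further lists, 0 were called higher and 1 lower with all arrays, against 0.478% higher and 1.6% lower among all probe sets, with a median difference of 0.03. At an unadjusted limma p under 0.05, 14 were higher and 4 lower, against 8.44% higher and 5.94% lower among all probe sets. Without mutant replicate 3, 12 were called higher and 5 lower, against 7.95% higher and 6.23% lower among all probe sets. The single call was Kitl, stem cell factor, the growth factor of mast cells and melanocytes. It read 8.05, 8.06 and 8.23 in mutant skin, against 8.69, 8.82 and 8.76 in wild type skin, and the groups did not overlap. Kitl fell by 0.65 (log2 difference -0.65, SE 0.08, limma adjusted p = 0.00689), and the call was lost without wild type replicate 3 (-0.64, adjusted p = 0.0503). Kit, its receptor, which melanocytes also carry, read 7.84, 8.19 and 8.67 in mutant skin, against 7.93, 8.38 and 8.20 in wild type skin (difference 0.06, adjusted p = 0.929). Kit is named beside its ligand, outside the naming rule and with its values known.

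**Figure D3:**
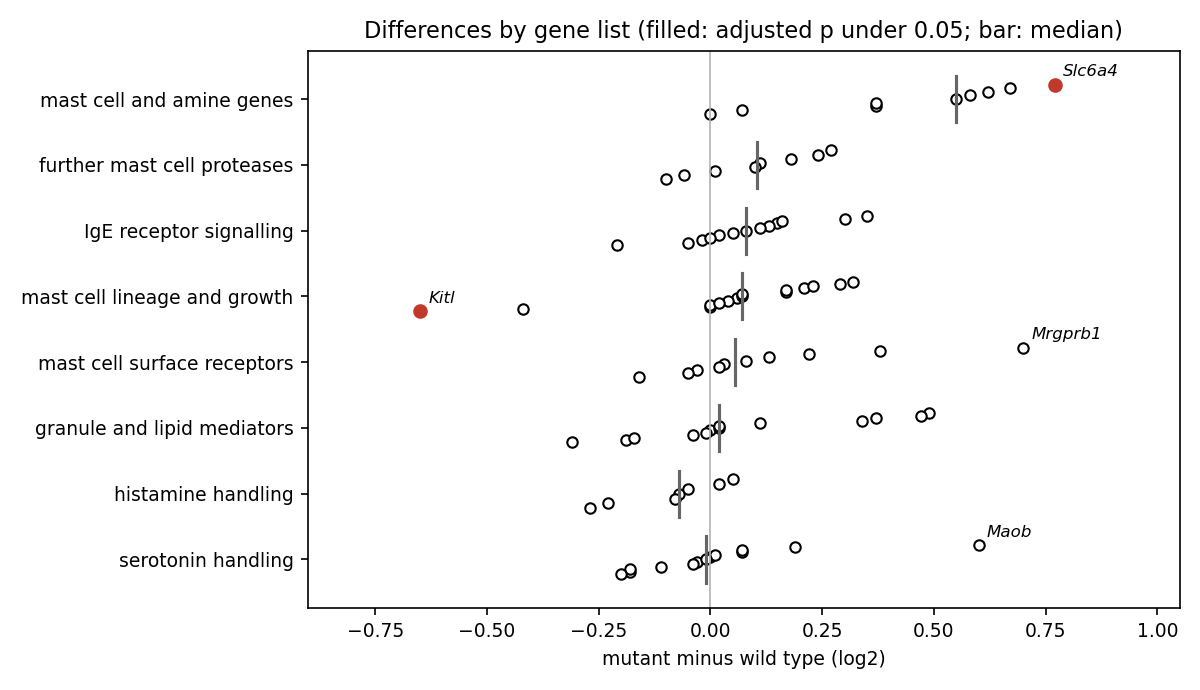
Difference of every measured gene (mutant minus wild type, log2) in the mast cell and amine genes and in 7 further lists. Filled points passed the limma test with all 6 arrays and grey bars mark list medians. Slc6a4 at 0.77 and Kitl at -0.65 are the filled points, and the medians of the further lists lie between -0.07 and 0.11.

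In the remaining lists the median differences stayed near 0. Of 8 further mast cell proteases limma called 0, and 2 were higher at an unadjusted p under 0.05, with a median of 0.11. Ctsg, cathepsin G, had the smallest p (difference 0.27, limma adjusted p = 0.232), and Ctsl, a lysosomal cathepsin of most cells, had the highest level (-0.06, adjusted p = 0.859). Mcpt1, Mcpt2, Mcpt8 and Gzmb were below background on all 6 arrays. These include the mucosal mast cell proteases Mcpt1 and Mcpt2 and the basophil protease Mcpt8.

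Among 13 genes of IgE receptor signalling (median 0.08) the smallest p was that of the adaptor gene Lat2 (difference 0.30, limma adjusted p = 0.134), and the kinase gene Fyn had the highest level (-0.05, adjusted p = 0.917). The lineage and growth list of 15 genes, which holds Kitl, had a median of 0.07. Of 10 mast cell surface receptors (median 0.05), Itga2, an integrin chain, had the smallest p (0.38, adjusted p = 0.14) and the prostaglandin receptor gene Ptger3 the highest level (0.03, adjusted p = 0.986). Mrgprb1, a Mas-related receptor gene named after its values were seen, read 6.33, 6.68 and 5.79 in mutant skin, against 5.33, 5.59 and 5.77 in wild type skin. All its mutant values were above its wild type values, that of mutant replicate 3 only barely. Its difference of 0.70 did not pass (limma adjusted p = 0.201), while it was 0.94 without mutant replicate 3 (adjusted p = 0.00673). Its values lay near background, above it on 5 arrays and above the 99th receptor percentile on 2.

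The 13 granule and lipid mediator genes had a median of 0.02. Rab27b, a small GTPase of granule transport, had the smallest p (difference -0.31, limma adjusted p = 0.0749), and the SNARE gene Vamp8 had the highest level (0.02, adjusted p = 0.979). In the leukotriene and prostaglandin branch, named after the values were seen, Ltc4s read 7.75, 8.14 and 7.42 in mutant skin, against 7.32, 7.25 and 7.28 in wild type skin (difference 0.49, limma adjusted p = 0.233, and 0.67 with adjusted p = 0.0092 without mutant replicate 3). Alox5, the lipoxygenase that forms leukotrienes, read 7.36, 7.53 and 7.51 in mutant skin, against 7.70, 7.40 and 7.25 in wild type skin (difference 0.02, adjusted p = 0.975), and Alox5ap, its activating protein, had a difference of 0.37 (adjusted p = 0.116, and 0.0177 without that array). Hpgds, the haematopoietic prostaglandin D synthase, was nearly level within mutant skin at 6.78, 6.80 and 6.77, against 6.39, 6.37 and 6.58 in wild type skin (difference 0.34, limma adjusted p = 0.0946, and 0.033 without mutant replicate 3). In Hpgds mutant replicate 3 did not stand apart.

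Histamine handling (7 genes, median -0.07) had 0 limma calls, also at an unadjusted p under 0.05, with the smallest p at Aoc1, the histamine-degrading diamine oxidase (difference -0.27, limma adjusted p = 0.445), and the highest level at Aldh7a1 (-0.05, adjusted p = 0.842). In serotonin handling (13 genes, median -0.01) limma called 0, and 1 was lower at an unadjusted p under 0.05. That was Htr3a, a serotonin-gated channel (-0.20, adjusted p = 0.301), and Maoa, a monoamine oxidase, had the highest level (0.07, adjusted p = 0.882). Maob, the other oxidase, and Slc18a2, the vesicular amine transporter, were looked at after their values were seen. Maob read 8.33, 8.22 and 7.08 in mutant skin, against 7.11, 7.36 and 7.37 in wild type skin (difference 0.60, limma adjusted p = 0.422), and without mutant replicate 3 the difference was 1.00 (adjusted p = 0.000828). Slc18a2 read 6.55, 6.58 and 5.62 in mutant skin, against 5.76, 6.08 and 6.33 in wild type skin (difference 0.19, limma adjusted p = 0.798), and without that array the difference was 0.50 (adjusted p = 0.0616). In both, mutant replicates 1 and 2 were the highest arrays and mutant replicate 3 the lowest.

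Markers of other cells moved over the same arrays. Beside the counts in these marker lists stand the shares over all probe sets. With all arrays limma called 0.478% higher and 1.6% lower, and 8.44% and 5.94% had an unadjusted p under 0.05. Without mutant replicate 3 it called 7.95% higher and 6.23% lower. Single calls in such short lists are not read as results. Macrophage markers were above background on every array (7 of 7), with a summed linear level of 2670 to 4160 in mutant skin and 2640 to 2720 in wild type skin. Of these, limma called 0 with all arrays, also 0 at an unadjusted p under 0.05, and 5 were called higher without mutant replicate 3, and the median difference was 0.33. Relative to the wild type mean, the macrophage sum was 1.24, 1.56 and 1.00 in mutant replicates 1, 2 and 3, against 1.02, 0.989 and 0.993 in the wild type arrays. For the platelet and megakaryocyte list (5 measured, 0 called by limma and 1, Pf4, higher at an unadjusted p under 0.05) the sum was 1370 to 2050 in mutant skin and 1250 to 1330 in wild type skin. Most of it was Pf4, which read 10.46, 10.75 and 9.89 in mutant skin, against 9.96, 9.80 and 9.87 in wild type skin (difference 0.49, limma adjusted p = 0.315, and 0.73 with adjusted p = 0.00377 without mutant replicate 3). Ppbp and Gp6 of that list were below background on all 6 arrays, and its median difference was -0.04. Basophil markers (3 measured) summed to 145 to 179 in mutant skin and 133 to 145 in wild type skin, with Mcpt8 and Cd200r3 below background on all 6 arrays.

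Markers of skeletal muscle, which lies under the dermis, also ran high in mutant skin. Their 5 measured genes summed to 42300, 33200 and 24600 in mutant replicates 1, 2 and 3, against 20300, 30900 and 16000 in wild type replicates 1, 2 and 3, so the groups overlapped. Limma called 0 of them with all arrays (1 higher at an unadjusted p under 0.05) and 1, Tnnt3, higher without mutant replicate 3, where its difference was 1.36 (adjusted p = 0.0253), against 1.01 with all arrays (adjusted p = 0.278). The 3 fat cell markers had sums of 18100 to 24000 in mutant skin and 18900 to 21200 in wild type skin, with a median difference of -0.08. Limma called 0 of them with all arrays (1 lower at an unadjusted p under 0.05). Adipoq was called higher without mutant replicate 3 (0.60, limma adjusted p = 0.0127). Lep ran the other way, at 6.76, 8.16 and 7.30 in mutant skin, against 8.30, 8.80 and 9.44 in wild type skin. Its difference with all arrays was -1.44 (limma adjusted p = 0.139).

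In mutant replicates 1 and 2, sums of pigment cell and neutrophil markers ran the other way. The 6 melanocyte markers summed to 13500, 11900 and 18400 in the mutant arrays, against 16100, 18800 and 17200 in the wild type arrays, with a median difference of -0.26. Limma called 0 of them with all arrays (2 lower at an unadjusted p under 0.05), with Mlana at -0.99 (adjusted p = 0.0903) and Tyr at -0.68 (adjusted p = 0.0968), and 4 lower without mutant replicate 3. The 6 neutrophil markers summed to 482 to 851 in mutant skin and 919 to 1200 in wild type skin. S100a8 had the highest level of them on every array and so weighed most in the sum. Limma called 0 of the neutrophil markers with all arrays (3 lower at an unadjusted p under 0.05) and 2 lower without mutant replicate 3. With all arrays S100a8 was at -1.23, Camp at -0.79 and Ngp at -0.27 (limma adjusted p = 0.158, 0.137 and 0.261). S100a9 was at -0.15 and Elane at -0.09, and Mpo was below background on every array.

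In the T cell list (5 measured) the sum was 1100 to 1120 in mutant skin and 940 to 978 in wild type skin, with a median difference of -0.02. Most of the sum was Thy1, which was higher in mutant skin (difference 0.34, limma adjusted p = 0.0598). The differences of Cd3e (-0.18), Cd3g (-0.08), Cd4 (-0.02) and Cd8a (-0.01) had the opposite sign. Median differences were 0.05 for dendritic and Langerhans cells, -0.34 for the 2 measured red cell markers, 0.15 for Schwann cells and nerve and -0.01 for fibroblasts. In these lists and the T cell list, limma made 0 calls with all arrays. Without mutant replicate 3 it called 1 T cell marker, 2 nerve markers and 1 fibroblast marker higher. In that fit 1 T cell, 1 dendritic or Langerhans cell, 1 red cell and 1 nerve marker were called lower. With all arrays, at an unadjusted limma p under 0.05, 1 T cell marker, 2 fibroblast markers and 1 nerve marker were higher and 1 nerve marker was lower. Keratinocyte markers summed to 51400 to 55100 in mutant skin and 48900 to 51500 in wild type skin, and endothelial markers to 847 to 1050 in mutant skin and 849 to 1020 in wild type skin, with 0 limma calls in either list, also at an unadjusted p under 0.05. The part of these cell types in the values of the proteases, Hdc and Slc6a4 was not tested.

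**Figure D4:**
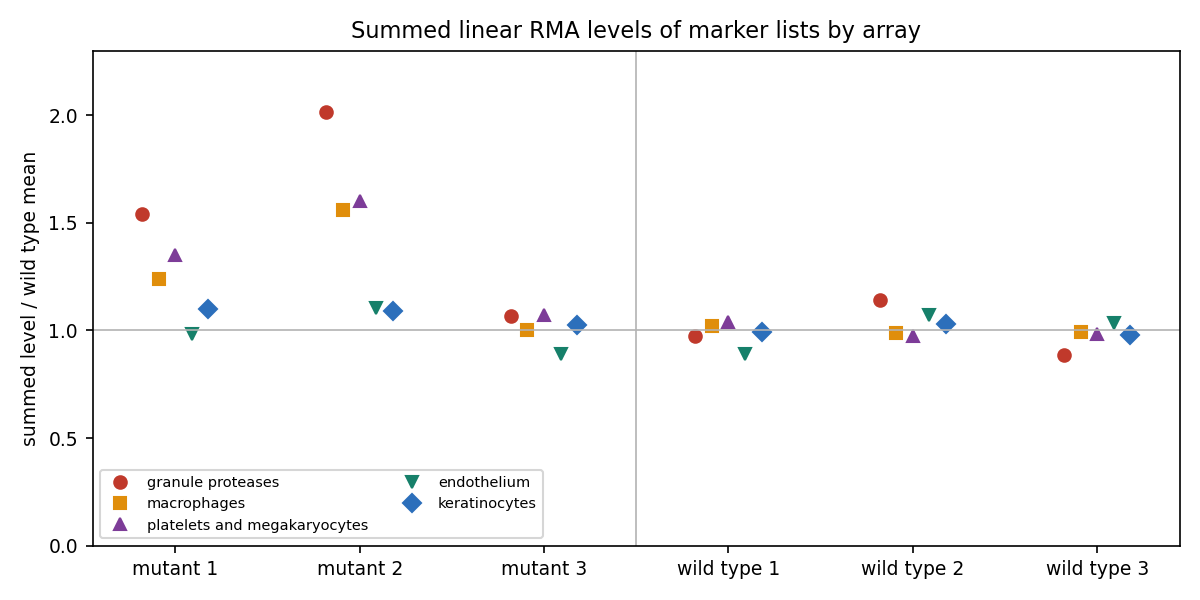
Summed linear RMA levels of the 4 measured granule proteases and of 4 marker lists on each array, each divided by its mean over the wild type arrays, mutant on the left. The protease sum stands at 1.54, 2.02 and 1.07 in the mutant arrays, and the macrophage sum at 1.24, 1.56 and 1.00, while endothelial sums stay between 0.891 and 1.1 over the 6 arrays.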

How the data were processed

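Gene expression was measured in skin of 3 mutant and 3 wild type mice. The authors deposited log2 values made with RMA, per the submitters' processing notes, which give no version. The scale follows from the values, whose median was 7.405 on every array, and no scanner files or detection calls were used. Of 16395 probe sets, 64 controls were left out and 16331 tested; the array annotation named 15644, of which 15617 gene numbers were in RefSeq (GRCm38.p6), which also gave the promoters.

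Groups, from the sample titles, were set against each other in a linear model (limma 3.58.1 under R 4.3.3; lmFit and eBayes, two-sided, no block), with Benjamini-Hochberg adjustment over 16331 probe sets at 0.05. The prior had 3.53 degrees of freedom. The test was checked on simulated data with independent noise, the wild type SD in both groups and changes of 1 log2 unit. That setting has no array standing apart and larger changes than those of the members. It therefore does not show how the test performs on these arrays. The p-values reflect only the scatter among 3 arrays a group, whose number sets the precision. Tables and figures used Python 3.11.15 and matplotlib 3.10.9. Named were all members, Hoxc13 and the 5 profiles closest to Cpa3. Per list, up to 4 called genes, or else the one with the smallest p, were named, and the one with the highest level. Further names are said to be so, except single genes of the cell marker lists, which were named with their values known. Members and lists were chosen with earlier results of these data known. Alternatives were a filter on low levels, repeated quantile normalisation, array centring, a robust prior with trend, weighted arrays, a replicate block, no moderation, leaving out each array, and 3 other background levels.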

Additional observations from a re-analysis of the deposited data

How the results depend on the processing

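With 3 arrays a group, precision is limited by their number. Probe sets called were 78 higher and 261 lower in mutant skin with all arrays; these became 1041 and 839 with array weights, 22 and 175 with the replicate block, 18 and 66 without moderation, and 9 to 1298 and 134 to 1018 when each array was left out. Genes of the further lists called were 0 higher and 1 lower, against 11 and 4 with array weights, 0 lower without moderation, and 0 to 12 and 0 to 5 when each array was left out; the upper ends came from the fit without mutant replicate 3. Array weights also brought calls for Cpa3 (0.76), Cma1 (0.88), Mcpt4 (0.74), Hdc (0.75) and Ms4a2 (0.52), as did leaving out mutant replicate 3. When each array was left out, the ranges were 0.33 to 0.83 for Cpa3, 0.43 to 0.93 for Cma1, 0.35 to 0.79 for Mcpt4, 0.28 to 0.51 for Tpsb2, 0.53 to 0.79 for Hdc, 0.22 to 0.57 for Ms4a2, -0.0037 to 0.12 for Fcer1a, -0.03 to 0.05 for Tph1 and 0.69 to 0.87 for Slc6a4, so only Fcer1a and Tph1, both below background, changed sign. Leaving out moderation changes the error estimate and its degrees of freedom, not the difference. Slc6a4 thus stayed at 0.77 and lost its call (adjusted p = 0.124 without moderation). The part of each change in the lost call was not tested. Among uncalled genes named for their level or p, Ctsl (-0.18 to 0.03), Fyn (-0.13 to 0.11), Ptger3 (-0.27 to 0.46), Vamp8 (-0.15 to 0.11), Aldh7a1 (-0.14 to 0.01) and Maoa (-0.03 to 0.26) changed sign over these fits, and Fyn (0.07) and Vamp8 (-0.12) did so with array weights. The low-level filter left out Ms4a2, Fcer1a and Tph1, which have no value there. Of the members, 5 were above background on every array at the stricter receptor percentile, and 6 by both other definitions.

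The titles share replicate numbers, which are not said to pair the samples. Deviations of same-numbered arrays from their group means correlated at 0.036, -0.119 and -0.0873. Of 3 mutant arrays, 0 correlated best with their own number. With 3 arrays a group, these correlations cannot exclude a pairing. With the replicate block the difference of Slc6a4 was 0.77 (limma adjusted p = 0.0357), and the block changed no call among the members. The limma adjusted p fell for Cma1 (0.289 to 0.0542), Mcpt4 (0.265 to 0.108), Tpsb2 (0.295 to 0.167) and Cpa3 (0.331 to 0.284). It rose for Hdc (0.0927 to 0.168), Slc6a4 and the members below background.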
